A study of Graphilbum sp. with 6 samples.

Results

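The genes described here are the GTPase, G-protein and calcium signalling genes of the fungus Graphilbum sp. (an ascomycete in the order Ophiostomatales) in hyphae kept with or without pine wilt nematodes. They were chosen by words in the description of each assembled transcript group (a Trinity feature, called a gene here for short) among features whose best protein hit belongs to Sporothrix, Grosmannia, Ophiostoma or Esteya. This class of Ophiostomatales-hit features held 4613 of the 26694 features in the table. The keyword list, read letter by letter, matched 496 of them. In 411 of these the only match was the letters "g protein" at the end of a longer word, such as "domain containing protein" (296 features) or "binding protein" (74 features), and those are given as counts near the end. The remaining 85 features carried a keyword as a word of its own or, for a few, at the start of a word, and are the signalling genes of the account below. They came from 83 distinct assembly components, and 4 of them shared a component with another member.

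Total RNA was sequenced from fungal hyphae in 6 libraries. Cultures of the wild-type fungus, for which the labels give no strain name, grew for 5 days at 28 °C on plates of potato dextrose agar, and hyphae were rinsed with phosphate-buffered saline before use. The control group of 3 libraries is labelled with 24 h alone, and the nematode group of 3 libraries with 24 h plus pine wilt nematodes, about 300 Bursaphelenchus xylophilus per the protocol. The series text calls the replicates biological but does not say what made them separate, so the p-values measure the spread between these libraries, which may be partly technical.

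Heterotrimeric G proteins carry a signal from receptors in the plasma membrane to effectors such as adenylate cyclase, whose product cyclic AMP activates protein kinase A. Small GTPases such as the Ras and Rab families are switches that are on with GTP and off with GDP, and exchange factors and GTPase-activating proteins set their state. Calcium enters the cytosol through channels, is removed by pumps and exchangers, and acts through calcium-binding sensors such as calmodulin, which activates the phosphatase calcineurin. In filamentous fungi these systems govern polarised growth of the hyphal tip, septation, membrane traffic, and responses to hosts and stress, and in nematode-trapping fungi G-protein signalling takes part in trap formation.

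Values are TPM (a length-scaled share of all transcripts) divided, in each library, by the median ratio over the Ophiostomatales-hit class, and are called rescaled TPM. The rescaling is needed because that class held between 68.5% and 70.0% of all TPM in the controls and between 28.7% and 39.4% in the nematode libraries, so that in the deposited TPM 82 of the 84 signalling genes tested were lower with nematodes, with a median log2 difference of -0.75 against -0.82 over the class. Within the class, the signalling genes together held 1.87%, 1.79% and 1.72% of the rescaled total in control replicates 1 to 3 and 1.81%, 1.87% and 1.81% in the nematode libraries. These group ranges overlap. In bulk samples, fewer cells of a type and less RNA per cell cannot be told apart. TPM keeps no depth, so no counting error can be given. Words for hyphal genes matched 34 class features. Words for conidial genes matched 0, so the tissue label could not be checked against conidia. Of the 33 hyphal-word features tested, 0 were called by limma. An unadjusted p under 0.05 was found for 3 (9.09%, against 10.8% of the class), all higher. Groups did not overlap for 5 (15.2%, against 18.3%), 4 higher and 1 lower. The words were matched as letters, so a longer word that holds "actin" would count too. The tubulin alpha gene DN2784_c0_g1 lay between 485.8 and 515.7 rescaled TPM in all 6 libraries, and the chitin synthase DN2756_c0_g1 between 252.6 and 324.5 in the controls and between 415.6 and 567.5 with nematodes. A further chitin synthase, DN495_c0_g1, overlapped between groups, at 10.2 to 20.7 in the controls and 17.3 to 25.9 with nematodes. Of the features named septin alone, DN3790_c0_g1 was higher in every nematode library, and DN17548_c0_g1, DN2435_c0_g1 and DN3790_c0_g2 overlapped. Words for nematode genes, or a best hit in Bursaphelenchus, Caenorhabditis or Pristionchus, matched 1 feature of the table. It was an interstitial collagenase with its best hit in Aspergillus, matched only through the letters of collagen. It had 4.36, 3.97 and 3.57 TPM in the nematode libraries and 0 in the others. The part of nematode RNA in the results was not tested.

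Of the 85 signalling genes, 84 passed the filter of at least 1 rescaled TPM in at least 3 libraries. In limma, with Benjamini-Hochberg adjustment over all 4568 class features tested, 1 signalling gene was higher with nematodes at an adjusted p under 0.05 and 0 were lower. Over the class, 0.613% of features were called higher (28 features) and 0.0438% were called lower (2 features). At an unadjusted p under 0.05 there were 10 signalling genes, or 11.9%, 7 of them higher and 3 lower, against 10.8% of the class. The 3 nematode libraries lay wholly above or below the 3 controls for 18 of the 84 genes, or 21.4%, of which 10 were higher and 8 lower, against 18.3% of the class. Both shares are near those of the class. The median log2 fold change of the signalling genes tested was 0.06, against -0.03 over the class, and 81 of the 84 lay within 1 log2 unit of no difference, 76 of them within 0.5.

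**Figure D1:**
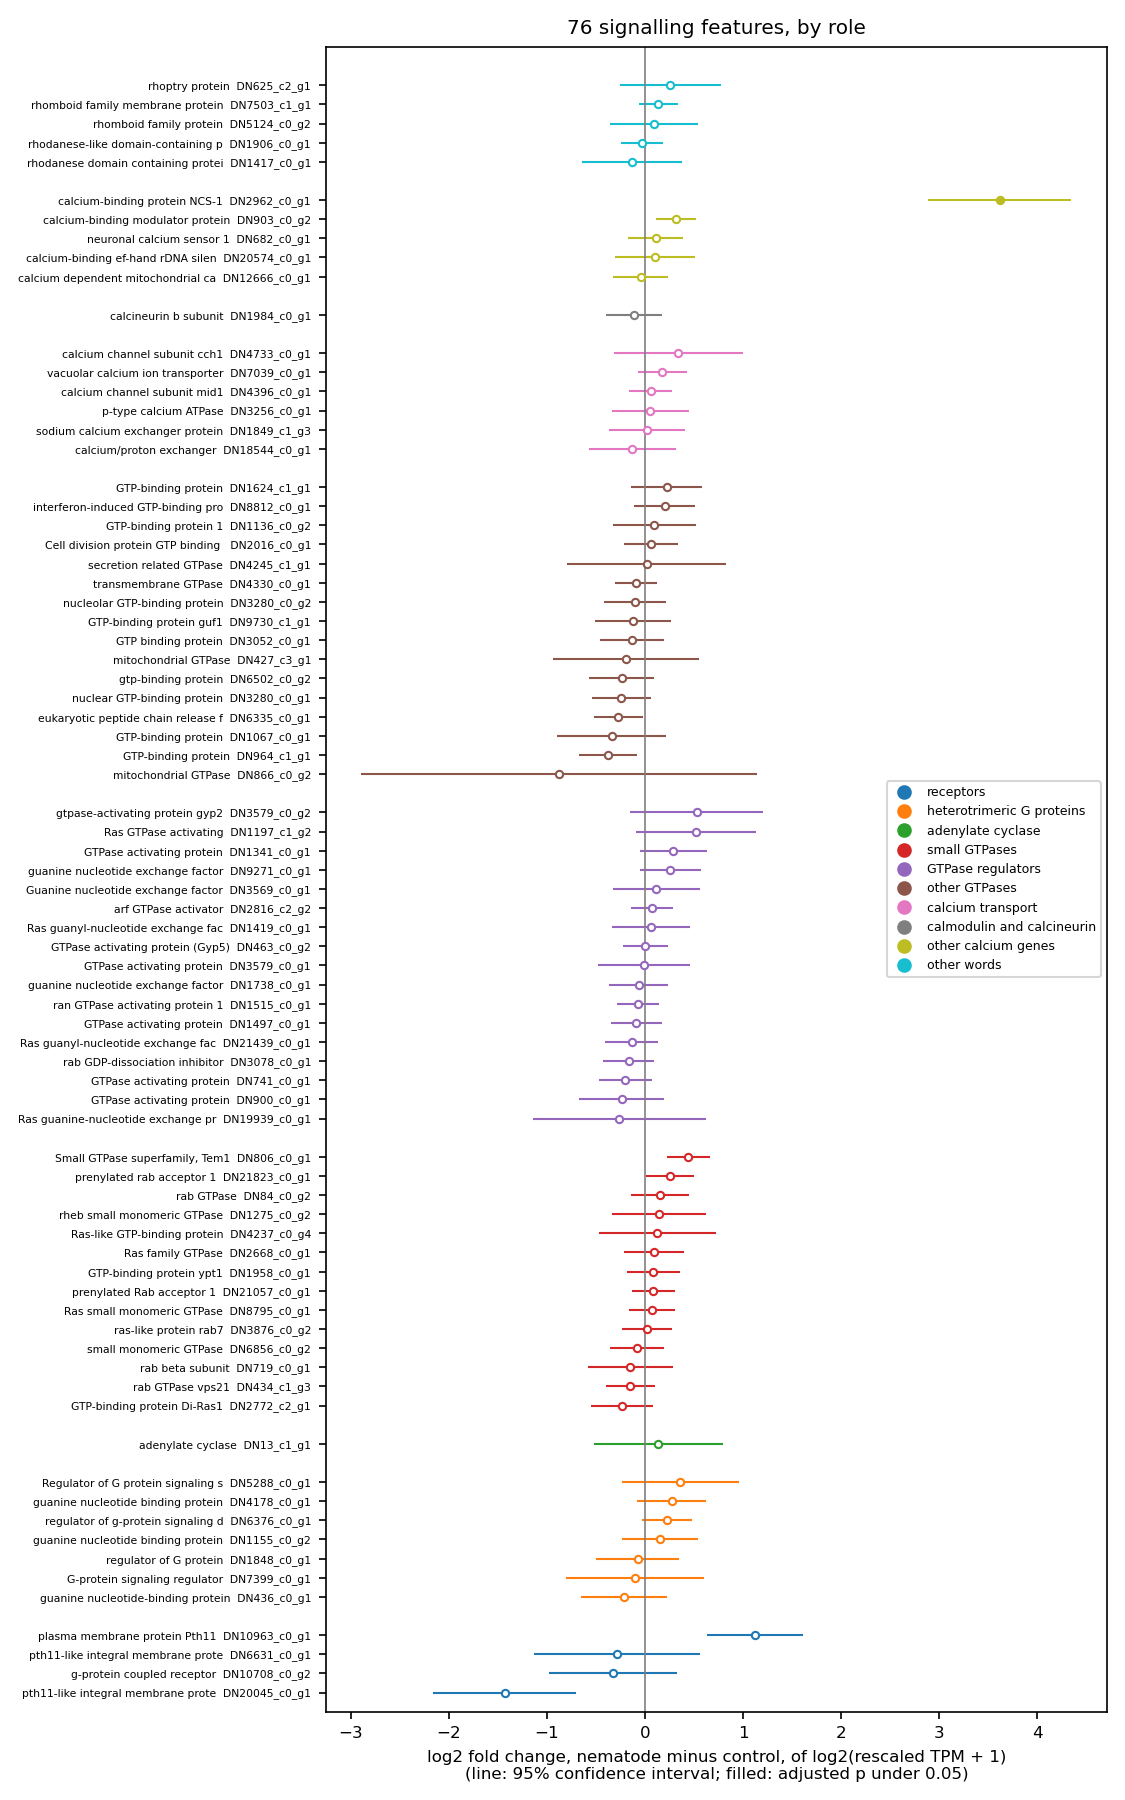
Log2 fold change (nematode minus control, on log2 of rescaled TPM + 1) of 76 signalling genes, coloured by role, with 95% confidence intervals as lines and a filled point where the adjusted p was under 0.05. A further 8 genes tested are counted in the text but not shown, so the spread within a role may be wider than drawn. The single filled point is the calcium sensor NCS-1 at 3.62, which passed the filter through the nematode libraries alone. Of the 76 genes, 73 lie between -1 and 1.

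The gene that passed the test was a calcium sensor. DN2962_c0_g1, described as calcium-binding protein NCS-1 after a Sporothrix schenckii protein, was listed at 0 in all 3 controls and stood at 16.3, 7.53 and 11.6 rescaled TPM in nematode replicates 1 to 3. Neuronal calcium sensor proteins are small EF-hand proteins, and the budding yeast member Frq1 activates a phosphatidylinositol 4-kinase. All 3 nematode libraries lay above all 3 controls. Its fitted log2 fold change was 3.62 ± 0.31 (SE) with a limma adjusted p of 0.00574, a size that depends on the pseudocount, and no ratio can be given against a group listed at 0. The gene passed the filter through the nematode libraries alone, so it had to differ to be tested at all. For the same reason its calls under the 16 alternatives (adjusted p between 0.00231 and 0.0460) are no sign of stability, and its fitted log2 fold change ranged from 1.71 to 6.82 over them.

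A second gene of the same name did not behave in this way. DN682_c0_g1, neuronal calcium sensor 1, stood at 318.4, 323.6 and 257.2 rescaled TPM in the controls and 320.4, 314.6 and 330.9 with nematodes. The groups overlapped, and control replicate 3 was the lowest library. The log2 fold change was 0.11 (95% interval -0.17 to 0.39; limma adjusted p = 0.783). The pair therefore differed in level as well: with nematodes, DN2962_c0_g1 averaged 11.8 ± 4.38 rescaled TPM and DN682_c0_g1 averaged 321.9 ± 8.27 (SD, n = 3 each).

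The spread of the first gene over the nematode libraries was set beside that of the other signalling genes. On the deposited TPM scale it stood at 4.76, 3.28 and 4.59 TPM, and its log2 ratio of nematode replicate 1 to the mean of replicates 2 and 3 was 0.27. For the other 83 signalling genes tested that log2 ratio had a median of -0.59, with 5% of genes below -0.93 and 5% above -0.32, and for DN682_c0_g1 it was -0.52. The highest of the 83 was 0.93, for the mitochondrial GTPase DN866_c0_g2, which was listed at 0 in nematode replicate 2. For 105 signalling features with best hits outside the Ophiostomatales, present in each nematode library and below 1 TPM in each control, the median log2 ratio was 0.38, with 5% below -0.15 and 5% above 0.88. Another sensor among those, DN7489_c0_g1 (Ncs1-like, best hit in Saitoella), was at 0 in every control and reached 14.9, 8.63 and 10.1 TPM in the nematode libraries, with a log2 ratio of 0.67. Which organism DN2962_c0_g1 comes from was not tested, and a best hit marks similarity, not origin.

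**Figure D2:**
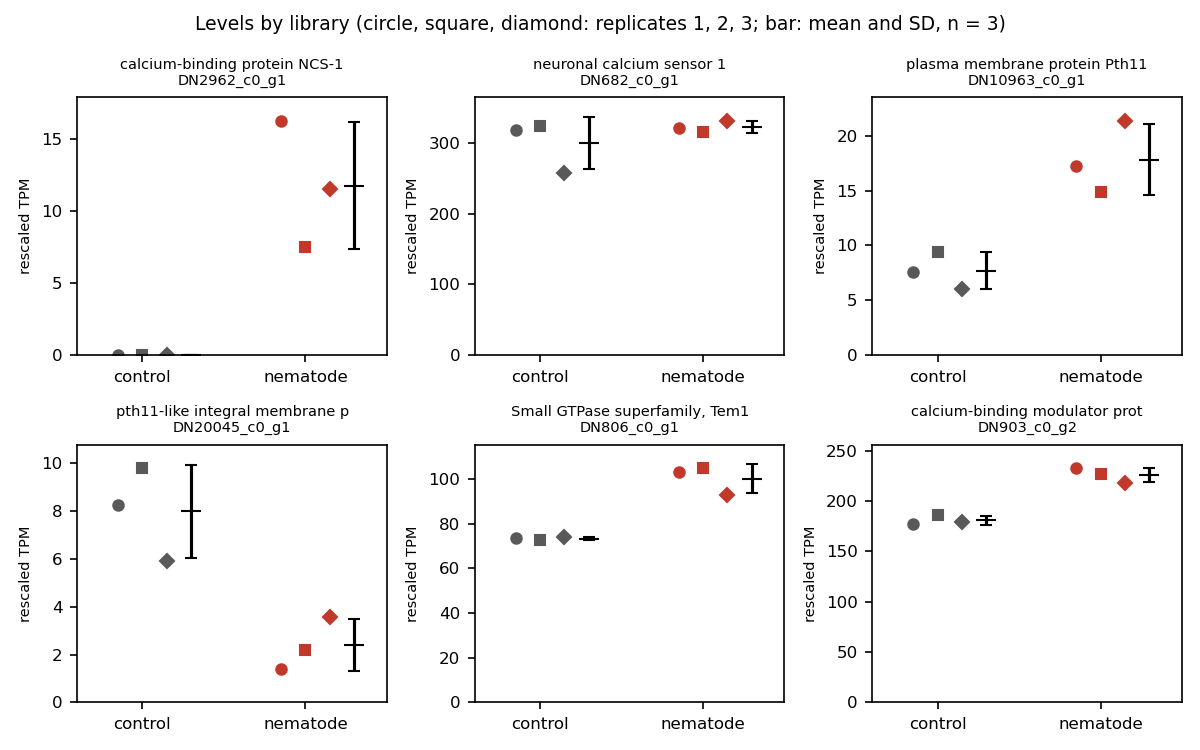
Rescaled TPM in each library for 6 signalling genes (circle, square and diamond for replicates 1, 2 and 3) with the mean and SD of each group (n = 3), every axis starting at 0. NCS-1 is listed at 0 in the controls, the second calcium sensor overlaps between groups, and in the other 4 genes the nematode libraries lie wholly above or, for the pth11-like DN20045_c0_g1, wholly below the controls.

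Among the 4 receptors, a pair of Pth11-type genes stood at opposite ends. Pth11 is a membrane receptor first known from the rice blast fungus, where it is needed for the infection structure to form. DN10963_c0_g1, plasma membrane protein Pth11, stood at 7.60, 9.42 and 6.04 rescaled TPM in the controls and 17.2, 14.9 and 21.4 with nematodes. Every nematode library was above every control. Its log2 fold change was 1.12 (95% interval 0.63 to 1.61), with an unadjusted p of 0.00106, and its limma adjusted p of 0.0948 did not pass. With class totals set equal it did, at an adjusted p of 0.0471, within a range of 0.0229 to 0.422 over the 16 alternatives.

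DN20045_c0_g1, a pth11-like integral membrane protein, stood at 8.24, 9.81 and 5.93 rescaled TPM in the controls and 1.40, 2.20 and 3.57 with nematodes. As deposited, the nematode values were 0.41, 0.96 and 1.42 TPM, which are low, and the depth behind them is unknown. Here every nematode library was below every control. On the log2 scale the difference was -1.43 (95% interval -2.16 to -0.71), and the limma adjusted p of 0.134 did not pass. The other two receptors overlapped between groups. DN6631_c0_g1, also pth11-like, stood at 27.7, 25.5 and 65.4 rescaled TPM in the controls and 24.7, 35.7 and 28.5 with nematodes, so that its highest value was control replicate 3. Its log2 fold change was -0.29, and 0.14 without that library. DN10708_c0_g2, a G-protein coupled receptor, lay between 1.61 and 3.66 rescaled TPM in all libraries, with a log2 fold change of -0.33.

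Downstream of receptors, the 7 heterotrimeric G-protein genes had log2 fold changes between -0.22 and 0.36, with a median of 0.15. Of these, 0 had an unadjusted p under 0.05, against 10.8% of the class, a count that says little for 7 genes. The Gα subunit DN4178_c0_g1, the part that binds GTP, stood at 116.9, 122.1 and 160.6 rescaled TPM in the controls and 143.7, 174.0 and 162.6 with nematodes. Control replicate 3 lay within the nematode range, so the groups overlapped. Its log2 fold change was 0.27 (95% interval -0.08 to 0.63; limma adjusted p = 0.581). The Gγ subunit DN436_c0_g1, part of the βγ pair that anchors and releases Gα, had the highest level of the 7, at 258.6 ± 70.3 rescaled TPM (SD, n = 3) in the controls and 217.3 ± 7.59 (SD, n = 3) with nematodes, and the control SD came mostly from replicate 3 at 338.9. The Gβ subunit DN1155_c0_g2 stood at 79.2 ± 17.2 and 87.2 ± 7.73 rescaled TPM (SD, n = 3).

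RGS proteins speed up the return of Gα to its inactive state. DN6376_c0_g1, a regulator of G-protein signalling, stood at 68.6, 72.3 and 62.9 rescaled TPM in the controls and 75.1, 76.6 and 87.6 with nematodes. This was the only heterotrimeric gene whose groups did not overlap, 1 of 7 (14.3%, against 18.3% of the class). Its log2 fold change was 0.23 (95% interval -0.03 to 0.48, limma adjusted p = 0.518). The other 3 regulators overlapped between groups, with log2 fold changes of 0.36, -0.08 and -0.10. The single adenylate cyclase, DN13_c1_g1, stood at 17.0, 12.5 and 26.4 rescaled TPM in the controls and 16.5, 24.3 and 19.0 with nematodes. Its control range enclosed all 3 nematode values, and the log2 fold change was 0.14 (95% interval -0.52 to 0.80), or -0.10 without control replicate 2.

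A list of 22 further features, picked outside the keyword rule by words for these pathways, had 0 past the limma threshold in either direction. Its median log2 fold change was 0.04. The words also matched names such as phospholipase carboxylesterase and glycerophosphodiester phosphodiesterase, and a role in signalling was not checked for any of the 22. At an unadjusted p under 0.05 there were 4 (18.2%, against 10.8% of the class), all higher, with 1 each of calcium/calmodulin-dependent kinase (DN269_c0_g1), phospholipase C (DN1649_c0_g1), the protein kinase C substrate 80K-H (DN20201_c0_g1) and a type I phosphodiesterase (DN1663_c0_g1). The calmodulin-dependent kinase, which reads calcium through calmodulin, stood at 321.6, 320.6 and 253.9 rescaled TPM in the controls and 386.2, 415.0 and 382.9 with nematodes. The feature described as phospholipase C stood at 5.43, 4.93 and 2.81 in the controls and 9.61, 10.5 and 6.62 with nematodes. In both the groups did not overlap, and the log2 fold changes were 0.41 (limma adjusted p = 0.295) and 0.89 (adjusted p = 0.303). A feature of the same component as the latter, DN1649_c0_g3, is described as non-hemolytic phospholipase C. It averaged 16.9 ± 3.10 and 14.1 ± 1.24 rescaled TPM (SD, n = 3), with a log2 fold change of -0.23. Which type of phospholipase C either feature encodes was not tested. Protein kinase A (DN469_c3_g1) stood at 55.6 ± 3.22 and 57.2 ± 4.93 rescaled TPM (SD, n = 3), and the mitogen-activated protein kinase DN1161_c0_g1 at 233.7 ± 4.33 and 214.4 ± 18.5. Among all 176 class features named kinase or phosphatase, 173 were tested, 0 were called by limma, 15 had an unadjusted p under 0.05 (8.67%), and the median log2 fold change was -0.02.

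Of the 16 small GTPase genes, including Rab acceptors and a Rab-named subunit, 15 were tested, with a median log2 fold change of 0.09, and 14 of the 15 lay within 0.5 log2 units of no difference. By unadjusted p, 3 of the 15 (20.0%, against 10.8% of the class) were under 0.05, all higher, and 4 (26.7%, against 18.3%) had groups that did not overlap. These shares rest on 15 genes. Tem1 (DN806_c0_g1), the budding yeast switch that starts exit from mitosis, stood at 73.4, 72.6 and 73.9 rescaled TPM in the controls and 103.1, 104.9 and 92.6 with nematodes. All nematode libraries were above all controls, and the control SD was 0.650. The log2 fold change was 0.44 (95% interval 0.23 to 0.66; limma adjusted p = 0.130).

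The prenylated Rab acceptor DN21823_c0_g1, of a family that acts in membrane traffic at the Golgi, averaged 140.0 ± 8.41 and 167.3 ± 13.9 rescaled TPM (SD, n = 3), with a log2 fold change of 0.25 and a limma adjusted p of 0.456.

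The Rab GTPases that direct vesicle traffic included some of the most abundant members, and 0 of them passed the test. Ypt1 (DN1958_c0_g1), which acts between the endoplasmic reticulum and the Golgi, stood at 1319, 1343 and 1240 rescaled TPM in the controls and 1340, 1360 and 1445 with nematodes, a log2 fold change of 0.09 (95% interval -0.18 to 0.35). Vps21 (DN434_c1_g3), the early endosome GTPase, stood at 1279, 1331 and 1316 in the controls and 1156, 1206 and 1180 with nematodes. Its groups did not overlap, yet the log2 fold change was -0.15 (95% interval -0.40 to 0.10; limma adjusted p = 0.696). Rab7 (DN3876_c0_g2), of the late endosome and vacuole, averaged 320.5 ± 27.2 and 324.5 ± 21.4 rescaled TPM (SD, n = 3).

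The Ras-type genes overlapped between groups. DN8795_c0_g1, a Ras small monomeric GTPase, averaged 183.3 ± 14.4 and 192.0 ± 7.71 rescaled TPM (SD, n = 3), and Rheb (DN1275_c0_g2), an activator of the TOR growth pathway in animals and fission yeast, averaged 90.1 ± 24.2 and 98.1 ± 14.1. The 1 signalling gene left untested was DN13413_c0_g1, a ras gtpase, which had 2.76, 0.53 and 0 TPM in control replicates 1 to 3 and 0 in the nematode libraries. A feature of the same assembly component, DN13413_c0_g2 (Rab-11B, best hit in Fusarium), had 9.05, 1.63 and 1.42 TPM in those controls and 0 with nematodes. Both were highest in control replicate 1.

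The 24 GTPase regulators, the exchange factors, GTPase-activating proteins and a dissociation inhibitor, centred on a median log2 fold change of 0.06, and 21 of them lay within 0.5 log2 units of no difference. By unadjusted p, 1 of the 24 (4.17%, against 10.8% of the class) was under 0.05, higher with nematodes. Some others were spread more widely within the controls than between the group means. The Ras GTPase-activating DN1197_c1_g2 stood at 11.4, 12.3 and 22.0 rescaled TPM in the controls and 17.9, 22.5 and 24.3 with nematodes, a log2 fold change of 0.52 (95% interval -0.10 to 1.14). The Ras guanine-nucleotide exchange protein DN19939_c0_g1 stood at 17.1, 15.6 and 43.1 in the controls and 16.9, 22.7 and 17.1 with nematodes. In both genes control replicate 3 stood far above the other two controls, and the log2 fold change of DN19939_c0_g1 was -0.26 with it and 0.19 without it. Rab GDP-dissociation inhibitor (DN3078_c0_g1), which draws inactive Rab proteins off membranes, had the highest level of the 24, at 941.3 ± 71.3 and 836.7 ± 14.2 rescaled TPM (SD, n = 3). Its groups did not overlap, with a log2 fold change of -0.17 (95% interval -0.43 to 0.09; limma adjusted p = 0.664). The Arf GTPase activator DN2816_c2_g2 (0.07, 95% interval -0.14 to 0.29) and Ran GTPase-activating protein DN1515_c0_g1 (-0.07, 95% interval -0.28 to 0.14) had some of the narrowest intervals of the log2 fold change.

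The 16 other GTPases and GTP-binding proteins, many with names from translation, nucleolar or mitochondrial proteins, had log2 fold changes from -0.87 to 0.22, with -0.13 as the median. Of these, 2 (12.5%, against 10.8% of the class) had an unadjusted p under 0.05, both lower, and 4 (25.0%, against 18.3%) had groups that did not overlap, all lower. Both shares are near those of the class. DN964_c1_g1, a GTP-binding protein, stood at 32.6, 26.1 and 28.3 rescaled TPM in the controls and 20.7, 22.5 and 23.0 with nematodes, a log2 fold change of -0.38 (limma adjusted p = 0.330). The translation termination factor subunit DN6335_c0_g1 stood at 252.4, 221.6 and 226.0 in the controls and 180.0, 189.4 and 210.7 with nematodes, a log2 fold change of -0.27 (limma adjusted p = 0.432). In both genes every nematode library was below every control.

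A feature of the same component as that termination factor, DN6335_c0_g2 (best hit in Phaeoacremonium), averaged 374.2 rescaled TPM in the controls and 353.7 with nematodes, so the component was split between both kinds of best hit. DN1067_c0_g1, a GTP-binding protein, was the most abundant signalling gene, at 5330, 5370 and 3575 rescaled TPM in the controls and 4285, 3022 and 3890 with nematodes. Its control replicate 3 fell among the nematode values, and the log2 fold change was -0.34 (95% interval -0.90 to 0.22). The mitochondrial GTPase DN866_c0_g2 had the widest interval, -2.90 to 1.15 on the log2 scale, and was listed at 0 in nematode replicate 2.

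The 6 calcium transport genes had log2 fold changes between -0.13 and 0.34 with a median of 0.06. Of these, 0 had an unadjusted p under 0.05 (10.8% of the class) and 0 had groups that did not overlap (18.3%). With 6 genes, counts of 0 say little. Cch1 (DN4733_c0_g1), the pore subunit of the plasma membrane calcium channel, stood at 13.0, 11.4 and 22.2 rescaled TPM in the controls and 16.2, 24.9 and 17.2 with nematodes. Its partner Mid1 (DN4396_c0_g1) stood at 76.8, 73.5 and 80.5 in the controls and 84.7, 76.8 and 78.9 with nematodes. This gave a log2 fold change of 0.34 for Cch1 (95% interval -0.32 to 1.00) and 0.06 for Mid1 (95% interval -0.16 to 0.28), so the channel's subunits were measured with very different precision.

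The vacuolar calcium ion transporter DN7039_c0_g1, of the kind that stores calcium in the vacuole, averaged 120.4 ± 6.72 and 136.6 ± 11.8 rescaled TPM (SD, n = 3), or 0.18 higher with nematodes on the log2 scale (limma adjusted p = 0.605). The P-type calcium ATPase DN3256_c0_g1, a pump, averaged 80.2 ± 17.8 and 82.2 ± 7.22. The calcium/proton exchanger DN18544_c0_g1 stood at 123.5, 124.8 and 196.6 in the controls and 130.4, 139.6 and 127.5 with nematodes, so that control replicate 3 alone stood apart.

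The calcineurin B subunit DN1984_c0_g1, the calcium-binding part of that phosphatase, stood at 330.7, 329.5 and 264.2 rescaled TPM in the controls and 293.4, 288.5 and 270.3 with nematodes. The groups overlapped through control replicate 3, and the log2 fold change was -0.11 (95% interval -0.39 to 0.17; limma adjusted p = 0.785). The catalytic subunit, named phosphatase 2b (DN6091_c1_g1) and therefore outside the rule, averaged 226.1 ± 2.65 and 232.8 ± 14.2 rescaled TPM (SD, n = 3). The Ophiostomatales-hit class held 0 features described as calmodulin itself.

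Among the other calcium-binding genes, DN903_c0_g2, a calcium-binding modulator protein, was measured tightly. It stood at 177.5, 185.8 and 179.2 rescaled TPM in the controls and 232.7, 226.4 and 218.3 with nematodes. All nematode libraries were above all controls, by more than the spread within either group. The log2 fold change was 0.32 (95% interval 0.12 to 0.52), with an unadjusted p of 0.00744, and the limma adjusted p of 0.224 did not pass. The calcium-dependent mitochondrial carrier DN12666_c0_g1 averaged 126.9 ± 13.9 and 122.9 ± 10.4 rescaled TPM (SD, n = 3), and the EF-hand rDNA silencing protein DN20574_c0_g1 averaged 65.9 ± 5.82 and 71.8 ± 16.7.

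Of the 85 genes, 5 held a keyword only as the opening letters of a word that names another protein: a pair of rhomboid proteins, which are membrane proteases, a pair of rhodanese proteins, which are sulphurtransferases, and 1 described as a rhoptry protein. Their log2 fold changes lay between -0.13 and 0.26, and 0 had an unadjusted p under 0.05, against 10.8% of the class. Without them, 1 of 79 genes tested was called and the median stayed at 0.06.

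Control replicate 3 stood apart from the other controls, and this touched many of the results above. The median absolute log2 difference over the 84 genes was 0.08 between control replicates 1 and 2, but 0.31 between 1 and 3 and 0.35 between 2 and 3. Among the nematode libraries it lay between 0.13 and 0.19. Replicate 3 of the controls was the highest or lowest of the 6 libraries for 45 of the 84 genes (53.6%, against 58.7% of the class).

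Its difference from the mean of the other two controls was not the same across roles. Over the signalling genes the median log2 difference was 0.21, against 0.01 over the class. Other lists had similar medians: 0.19 for kinases and phosphatases, 0.17 for features matched only through letters, and 0.20 for the hyphal words. The shift was thus not particular to the signalling genes. Within them, the median was 0.36 for the GTPase regulators, 19 of 24 of which were higher in replicate 3. It was 0.47 for the heterotrimeric genes, 0.52 for calcium transport, 0.15 for the small GTPases, and -0.08 for the other GTPases. The library's cause for standing apart was not tested.

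**Figure D3:**
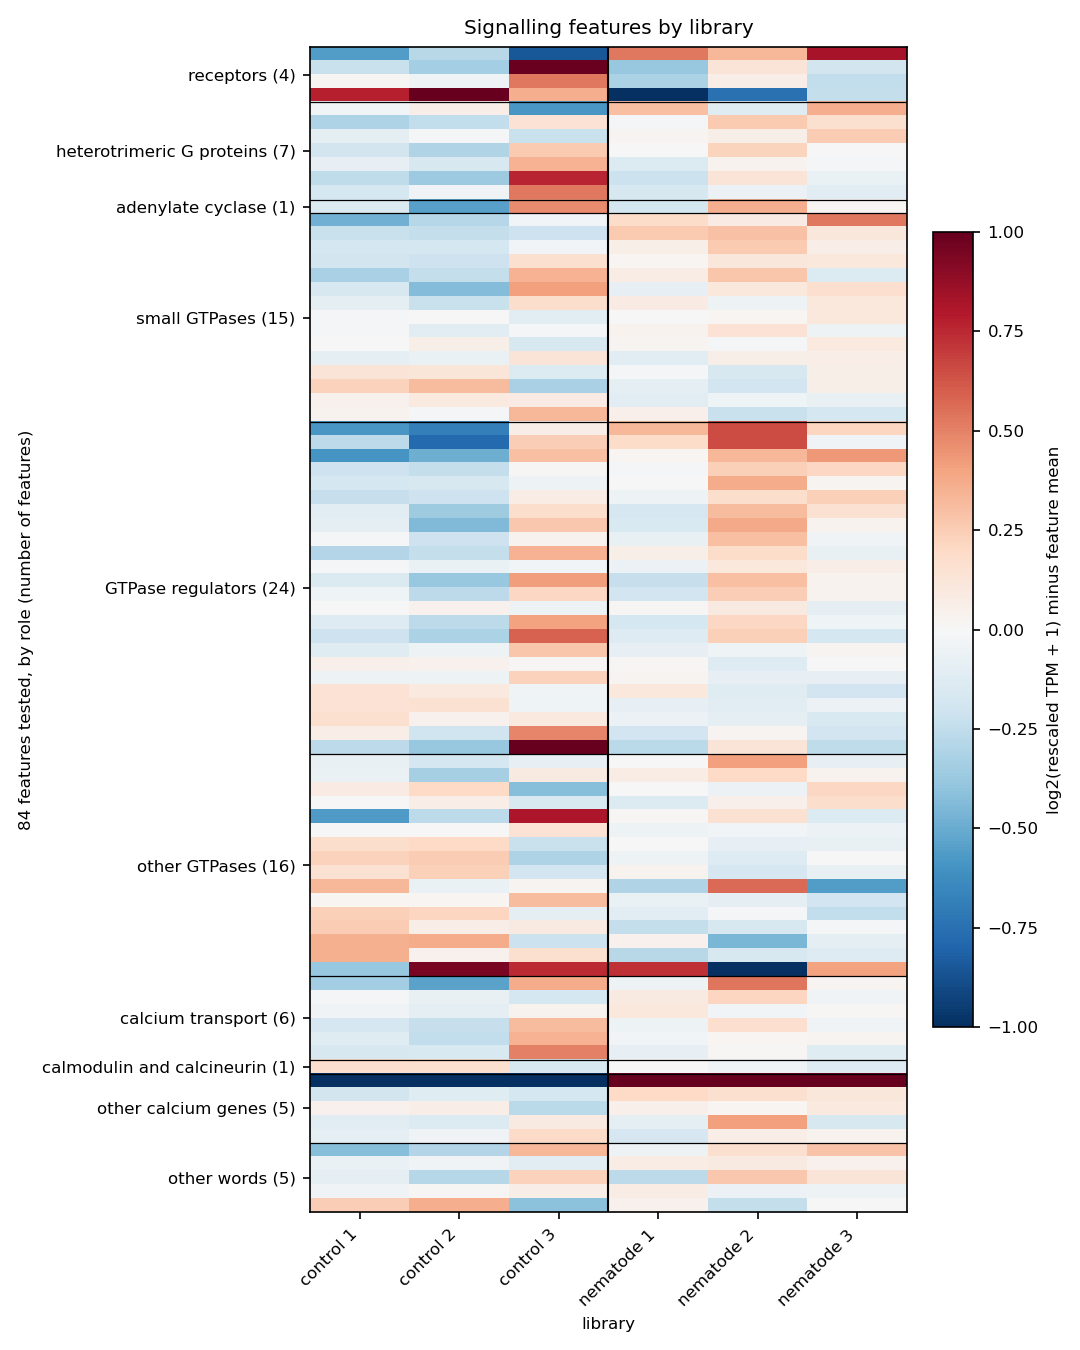
Each of the 84 signalling genes tested (lines, grouped by role with the number of genes) in each of the 6 libraries (columns), as log2 of rescaled TPM + 1 minus the gene's own mean, with values past 1 or -1 drawn as 1 or -1. Control replicates 1 and 2 look alike, control replicate 3 differs from them in many regulators and calcium transport genes, and NCS-1 is the gene with the sharpest border between the groups.

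Without control replicate 3, 13 of the 84 genes passed the limma threshold, or 15.5%, of which 10 were higher and 3 lower, against 14.2% of the class. Again the share is near that of the class. They included NCS-1, Pth11 (DN10963_c0_g1), the pth11-like DN20045_c0_g1, the Ras GTPase-activating DN1197_c1_g2, Tem1, the Gα subunit, the modulator DN903_c0_g2, the rab GTPase DN84_c0_g2, the nuclear GTP-binding protein DN3280_c0_g1, guf1 (DN9730_c1_g1) and the rhoptry-named DN625_c2_g1. The log2 fold change without that library was 0.98 for Pth11 (adjusted p = 0.0229) and -1.61 for the pth11-like gene (adjusted p = 0.0253). For Tem1 it was 0.45 (adjusted p = 0.0230) and for the Gα subunit 0.41 (adjusted p = 0.0361). Over the 16 alternatives the highest adjusted p was 0.454 for the pth11-like gene, 0.531 for Tem1 and 0.953 for the Gα subunit. The fit with all 6 libraries remains the main result, since no label sets that library apart.

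For the 411 features that matched only through letters, the median log2 fold change was -0.03, as over the class to 2 decimals. Of the 411, 4 passed the limma threshold, all higher with nematodes, against 28 of 4568 (0.613%) called higher over the class. The largest difference among them was a CFEM domain protein, of a family of cysteine-rich fungal surface proteins. That gene, DN509_c0_g1, stood at 4.17, 8.92 and 6.50 rescaled TPM in the controls and 301.1, 337.1 and 376.2 with nematodes. The remaining 3 were a DUF1761 domain protein (DN11428_c0_g1), a C2H2 finger protein (DN2741_c0_g3) and a beta-glucan-binding protein (DN20263_c0_g1), with log2 fold changes of 2.50, 0.65 and 1.72. None of the 4 names a GTPase, G protein or calcium gene.

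Beyond the class, 148 features with other best hits carried the same whole-word keywords. Of these, 105 had at least 1 TPM in each nematode library while staying below 1 TPM in each control, and 10 were at 1 TPM or more in all 3 controls. The same count was not made over all features with other best hits. No trait of signalling features can therefore be read from it. The 105 had best hits in 55 genera and summed to 3717, 2723 and 2787 TPM as deposited in the nematode libraries and to 0.720, 0.230 and 0.110 TPM in the controls. Small GTPases made up 40 of them. Of 12 features described as calmodulin, 8 were among these 105 and 0 were at 1 TPM or more in all controls. Another 2 went the other way, listed at 0 in every nematode library. Of these, DN15658_c0_g1 had 4.20, 0 and 6.83 TPM in the controls, and DN19513_c0_g1 had 3.71, 1.18 and 0. The most abundant calmodulin feature was DN22721_c0_g1 (best hit in Hesseltinella). It stood at 701.1, 510.0 and 501.2 TPM with nematodes, against 0, 0.18 and 0 TPM without them.

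**Figure D4:**
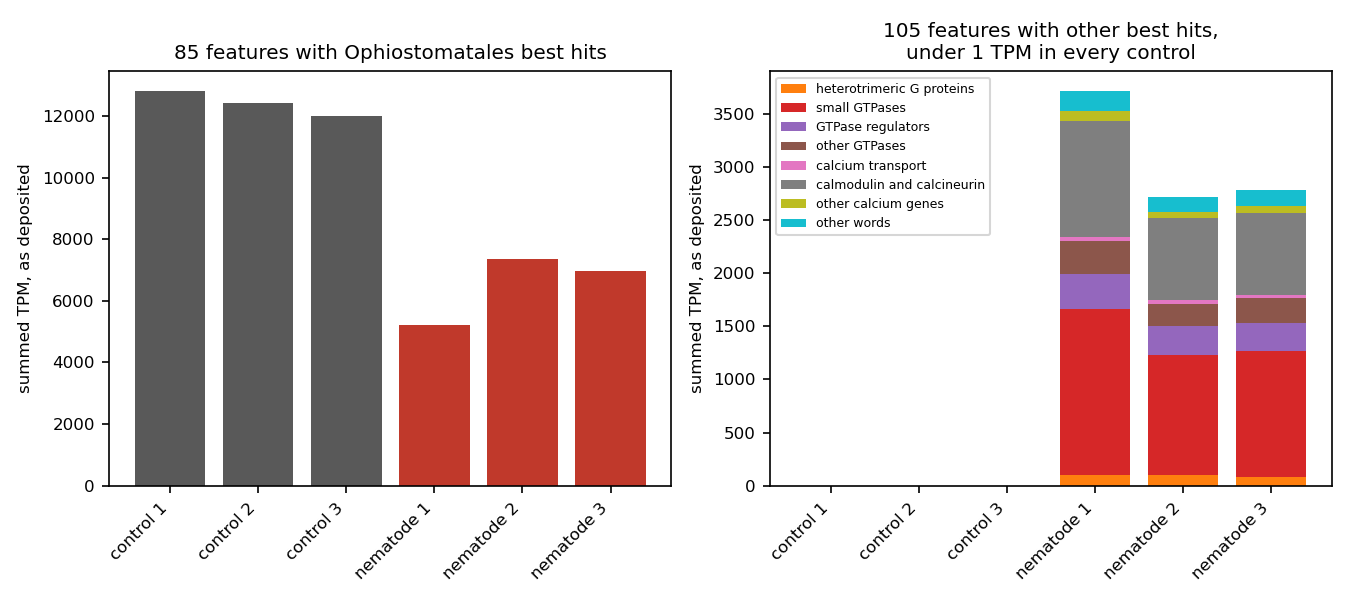
Summed TPM as deposited in each of the 6 libraries for the 85 signalling genes with Ophiostomatales best hits (left) and for the 105 signalling features with other best hits that are under 1 TPM in every control (right, stacked by role), with separate vertical scales starting at 0. The left sums lie between 12017 and 12812 in the controls and between 5204 and 7345 with nematodes, and the right sums lie between 2723 and 3717 with nematodes and under 1 in the controls.

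Among the 10 found in all controls were GTPases of membrane traffic. SAR1 (DN257_c0_g1, best hit in Fusarium), which starts coated vesicles at the endoplasmic reticulum, averaged 706.6 rescaled TPM in the controls and 661.9 with nematodes. The Rab5-like ypt5 (DN3244_c0_g4) averaged 375.5 and 359.5, and rab-6a (DN3975_c0_g1) averaged 545.5 and 510.4 rescaled TPM. These features were not in the fit, so no test is given for them.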

How the data were processed

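RNA from 3 control and 3 nematode libraries was sequenced with standard Illumina preparation, per the labels' protocols. The authors deposited 1 table of TPM per assembled feature, with a best-hit description for each of 13460 features that have one. Apart from the Trinity form of the feature names, the assembler, quantifier and their versions were not given in the sources used here. Depth is unknown and limits what can be said of low values.

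Computed here: features with best hits in 4 Ophiostomatales genera were kept as a class, each library was divided by its median ratio over that class, and class totals were set to average 1e+06. Log2(rescaled TPM + 1) was tested with limma 3.58.1 in R 4.3.3 (statmod 1.5.0), with a mean-variance trend, on features of at least 1 rescaled TPM in at least 3 libraries. P-values are two-sided and adjusted by Benjamini-Hochberg over 4568 features, with a threshold of 0.05. Fold changes are on that log2 scale, which understates changes of low features. An exact permutation test of 3 against 3 cannot go below 0.10, so none was used.

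Groups and replicate numbers came from the sample labels. Roles were set by description words, and 4 features were moved between roles after their descriptions were read. In each role, named genes were the 2 of smallest p and the 3 of highest mean level, together with any past the threshold and those named as Ras, G-protein subunit, adenylate cyclase, calmodulin, calcineurin or calcium channel, except for some signalling genes that are counted but not reported here by name, whichever place the rule gave them. A gene named beyond the rule was chosen after its values were seen. Members, lists and alternatives were chosen with earlier results of these data known. The test was tried on simulated data over 4563 features, with 63% of the 2-fold and 94% of the 4-fold changes found and 11 features called that had none. Changes were planted only in features above a minimum mean level, and noise was independent between features. A library that stands apart over many features, as control replicate 3 does, was not simulated, so these rates need not hold here. No sequences are shown, since none were in the files used here.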

Additional observations from a re-analysis of the deposited data

Results flagged for a closer look

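Signal appeared in features that the comparisons above do not use. The 105 whole-word signalling features with best hits outside the Ophiostomatales and under 1 TPM in every control summed to 3076 ± 556.3 TPM (SD, n = 3) as deposited in the nematode libraries and to 0.353 ± 0.323 TPM (SD, n = 3) in the controls. Within them, the 8 calmodulin features summed to 879.4 ± 186.4 TPM (SD, n = 3) with nematodes, with 1095, 771.5 and 772.1 TPM in replicates 1 to 3, and to at most 0.18 TPM in a control. The features were picked for being low in the controls, so the contrast itself is no test, and their source was not tested. Whether other features with such best hits do the same was not counted. The values were highest in nematode replicate 1, the library with the lowest share of TPM in the Ophiostomatales-hit class.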

How the results depend on the processing

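Over 16 alternatives, the features called in the class numbered 30 in the main analysis, 48 with class totals set equal, 12 with the replicate number as a block (11 of them also called without it, 19 lost), and between 9 and 649 when 1 library was left out. The lowest count came without nematode replicate 1 and the highest without control replicate 3. The other counts were 14 and 16 without control replicates 1 and 2, and 16 and 13 without nematode replicates 2 and 3. The signalling genes called numbered 1, then 2 with equal class totals, and between 1 and 13 on leaving out a library. Reading the keywords letter by letter, an alternative chosen after seeing the data, gave 5. Their median log2 fold change was 0.06 in the main analysis, 0.20 with equal class totals, where the class median moved by 0.14 to 0.11, and between -0.02 and 0.13 on leaving out a library, so its sign is not settled. Equal class totals also put 66 of the 84 genes above 0 against 48 in the main analysis, and 18 against 36 below. Of the alternative values of named genes, 664 kept direction and side of the threshold, 10 newly passed it (9 of them without control replicate 3) and 30 changed direction. All 30 belong to genes that did not pass the test in the main analysis or under that alternative, and the cause was not tested. Deviations from the group mean had correlations of 0.15, -0.43 and -0.28 between same-numbered libraries. Such deviations sum to 0 within a group of 3, so the correlations cannot show whether a replicate number marks a shared batch. The replicate block changed no call among the signalling genes. With 3 libraries a group and unknown depth, differences well under 2-fold are near the limit of the test.

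The changes of direction under other scalings were small. With equal class totals the log2 fold change turned to 0.0978 for DN12666_c0_g1, 0.0104 for DN1417_c0_g1, 0.0696 for DN1515_c0_g1, 0.0145 for DN18544_c0_g1, 0.114 for DN1906_c0_g1, 0.0323 for DN1984_c0_g1, 0.0055 for DN21439_c0_g1 and 0.0423 for DN7399_c0_g1. With quantile normalization it turned to 0.0044 for DN12666_c0_g1 and 0.0139 for DN1906_c0_g1. On leaving out 1 library at a time, the log2 fold change of 12 genes spanned 0. It ran from -0.0920 to 0.222 for DN1136_c0_g2, -0.104 to 0.0424 for DN12666_c0_g1, -0.102 to 0.409 for DN13_c1_g1 and -0.371 to 0.0157 for DN1417_c0_g1. For DN1419_c0_g1 it ran from -0.0555 to 0.179, for DN18544_c0_g1 from -0.241 to 0.0922, for DN19939_c0_g1 from -0.515 to 0.188 and for DN3256_c0_g1 from -0.0497 to 0.226. For DN3876_c0_g2 it ran from -0.0219 to 0.0879, for DN4237_c0_g4 from -0.0610 to 0.363, for DN6631_c0_g1 from -0.528 to 0.136 and for DN7399_c0_g1 from -0.305 to 0.258.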
